A study of Homo sapiens with 12 samples.

Results

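Eph receptors and ephrins form a system of contact signalling between neighbouring cells. The Eph receptors are the largest family of receptor tyrosine kinases and their ephrin ligands are membrane-bound, so a signal can pass into the cell that carries the receptor and also back into the cell that carries the ligand. The A-type ephrins are held by a lipid anchor and mostly bind EphA receptors, whereas the B-type ephrins cross the membrane and mostly bind EphB receptors, and EphA4 binds both types. In epithelia and in carcinomas the system is known for its part in cell adhesion, repulsion, boundary formation and migration.

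The 10 genes followed here comprise 5 receptors, EPHA5, EPHA2, EPHA4, EPHB2 and EPHB4, and 5 ligands, EFNA1, EFNA4, EFNA5, EFNB1 and EFNB2. They are the 10 rows, of 58302 in the expression table, that carry these names. EPHA5 was selected on its lower values in the clones than in the parental cells, so its levels against the parental cells are a description and were not tested. The other 9 belong to the same family and were chosen with earlier results of these data known, so they are not a neutral sample of it. All 10 passed the filter on low values, at least 1 per 1000000 in at least 3 libraries, as did 4 of the 12 other genes of the family. EPHA5 passed through the TPC1 and WB1 libraries, where it is high, and 1 TD5 library, while no D11 library reached that level.

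The series holds 12 RNA-seq libraries, 3 from each of 4 cell lines. TPC1, the parental line, is an established line from a human papillary thyroid carcinoma and carries unedited Dicer1. D11, WB1 and TD5 are Dicer1 (+/-) lines made from TPC1 with CRISPR-Cas9, each carrying a frameshift deletion in one allele of the enzyme that cuts microRNA precursors. Each of the 3 is a single clone, so a difference between a clone and TPC1 cannot be told apart from one that the founding cell of the clone already had. No agent was applied to any of these libraries. The values are gene-level read counts scaled to 20000000 aligned reads and rounded up, called scaled reads below.

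Depth estimated from the step between neighbouring scaled values ranged from 12700000 to 21020000 reads, so that 3 reads corresponded to 2.85 to 4.72 scaled reads. DICER1 was at 1360, 1129 and 1101 scaled reads in TPC1 and between 627 and 1093 in the 9 clone libraries, below TPC1 in every one. Its log2 difference from TPC1 was -0.19 for D11 (adjusted p = 0.138), -0.43 for WB1 (adjusted p = 0.00404) and -0.77 for TD5 (adjusted p = 9.02e-05, limma with Benjamini-Hochberg adjustment). Of 8 thyroid follicular markers, PAX8 and FOXE1 were at 1 per 1000000 or more in every library and 4 were at 0 in all 3 libraries of each line. KRT7, KRT8 and KRT18 were the 3 of 6 epithelial markers at that level. The summed level of 5 neuronal markers was 1.95 to 3.75 per 1000000 and that of 5 blood markers 46.1 to 75.6, of which CD68 was the blood marker at 1 or more. The epithelial markers summed to 1070 to 1220 in TPC1, 858 to 933 in D11, 905 to 928 in WB1 and 844 to 966 in TD5. The blood markers summed to 46.1 to 57.5 in TPC1, 48.7 to 56.2 in D11, 62.5 to 75.6 in WB1 and 60.4 to 68 in TD5. The thyroid markers summed to 377 to 443 in TPC1, 386 to 412 in D11, 429 to 500 in WB1 and 455 to 495 in TD5. The sums of the fibroblast and endothelial markers differed between lines too and are given with EPHA5.

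The start regions of the 4 members whose values differed most between lines, and of the antisense gene that shares its start region with EPHA5, are shown to place those genes. Each window is 300 bases long, 250 before the RefSeq start and 50 from it on, in build GRCh38.p14 and written 5′ to 3′ on the strand of the gene: EPHA5 at chr4:65670440-65670739 on the minus strand, EPHA5-AS1 at chr4:65669711-65670010 on the plus strand, EPHB2 at chr1:22710588-22710887 on the plus strand, EFNB1 at chrX:68828771-68829070 on the plus strand and EFNB2 at chr13:106535613-106535912 on the minus strand. Capitals mark short motifs that are common near gene starts, each searched on both strands. The first is the GC box, with the letters GGGCGG. The second is the CCAAT box, which its name spells out. The third is the TATA box, searched here as TATAAA.
EPHA5: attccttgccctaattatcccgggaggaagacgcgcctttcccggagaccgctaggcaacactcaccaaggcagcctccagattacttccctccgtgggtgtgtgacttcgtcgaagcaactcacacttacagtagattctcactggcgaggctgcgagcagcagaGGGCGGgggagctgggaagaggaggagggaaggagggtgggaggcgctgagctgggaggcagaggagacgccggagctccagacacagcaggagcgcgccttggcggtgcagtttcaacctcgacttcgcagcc
EPHA5-AS1: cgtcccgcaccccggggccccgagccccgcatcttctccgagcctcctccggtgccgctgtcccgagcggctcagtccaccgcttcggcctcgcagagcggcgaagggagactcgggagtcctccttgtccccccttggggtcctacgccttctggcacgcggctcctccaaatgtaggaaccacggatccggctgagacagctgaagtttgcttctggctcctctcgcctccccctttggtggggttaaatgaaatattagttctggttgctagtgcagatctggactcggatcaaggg
EPHB2: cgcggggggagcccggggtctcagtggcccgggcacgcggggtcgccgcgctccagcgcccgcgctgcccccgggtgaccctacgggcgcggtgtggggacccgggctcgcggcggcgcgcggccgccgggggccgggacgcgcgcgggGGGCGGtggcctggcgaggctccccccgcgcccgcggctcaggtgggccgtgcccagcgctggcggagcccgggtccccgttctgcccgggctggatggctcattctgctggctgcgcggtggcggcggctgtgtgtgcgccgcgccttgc
EFNB1: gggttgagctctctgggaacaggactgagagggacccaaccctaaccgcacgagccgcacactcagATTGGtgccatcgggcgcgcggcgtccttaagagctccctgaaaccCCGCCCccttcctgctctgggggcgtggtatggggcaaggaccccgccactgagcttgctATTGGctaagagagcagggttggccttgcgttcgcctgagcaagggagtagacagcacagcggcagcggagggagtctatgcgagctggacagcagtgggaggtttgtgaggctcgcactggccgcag
EFNB2: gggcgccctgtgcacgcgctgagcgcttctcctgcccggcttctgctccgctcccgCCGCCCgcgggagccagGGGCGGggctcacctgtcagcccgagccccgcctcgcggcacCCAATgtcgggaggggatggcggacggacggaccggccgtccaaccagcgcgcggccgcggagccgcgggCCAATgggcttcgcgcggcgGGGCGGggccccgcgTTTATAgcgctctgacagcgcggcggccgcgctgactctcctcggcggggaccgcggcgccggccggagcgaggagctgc

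All 10 members had a RefSeq window, 13 windows in all because 3 members have a second start. A GC box was found in all 13, against 45.0% of the 35116 windows in the RefSeq table, a CCAAT box in 5, against 34.6%, and a TATA box in 1, that of EFNB2, against 11.5%. The CpG count was above the table's median of 14 in 12 of the 13 member windows. It was 19 for EPHA5, 18 for EFNB1, and 49 for both EPHB2 and EFNB2, while the EPHA5-AS1 window had 23 CpG and none of the 3 motifs. A match is a description of the letters and not of a bound site.

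EPHA5 (ENSG00000145242, chr4:65319563-65670495, minus strand, 18 merged exons) encodes an EphA receptor best known from axon guidance in the developing nervous system. It was at 90, 98 and 89 scaled reads in TPC1, at 2, 2 and 3 in D11, at 67, 48 and 42 in WB1 and at 23, 16 and 14 in TD5. The 4 lines formed separate ranges in the order TPC1, WB1, TD5, D11, and every clone library was below every TPC1 library. The line means were 92.3 ± 4.93 scaled reads in TPC1, 52.3 ± 13.1 in WB1, 17.7 ± 4.73 in TD5 and 2.33 ± 0.577 in D11 (SD, n = 3 libraries each), or 56.7%, 19.1% and 2.53% of TPC1 for the 3 clones. In RNA from whole cultures, fewer cells with EPHA5 and less EPHA5 RNA per cell cannot be told apart.

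The D11 values rest on very few reads, and rounding up raises them, so the 2.53% above overstates D11. Converted back with the estimated depth they were 1, 1 and 2 reads, 4 in all, against 239 reads in the 3 TPC1 libraries, so the share of reads that fell on EPHA5 in TPC1 was 55.0 times that in D11, with a 95% counting interval of 21.2 to 204. The same ratio was 5.48 for TD5, on 36 reads (3.85 to 8.01), and 1.79 for WB1, on 138 reads (1.44 to 2.22). These intervals cover counting error only, not the spread between libraries. On the fitted scale, log2(value per 1000000 + 1), which understates differences of low genes, the EPHA5 differences from TPC1 were -2.33 in D11, -1.58 in TD5 and -0.65 in WB1. With a pseudocount of 0.1 they were -4.45, -2.29 and -0.82, and with one of 4 they were -1.06, -0.82 and -0.39, so their size depends on that choice.

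The EPHA5 differences between clones are given as a description too, with no p, because the gene was picked for its low values in these clones and entered the fit only through the lines where it is high. The log2 difference was 1.68 for WB1 against D11, 0.75 for TD5 against D11 and -0.93 for TD5 against WB1 (SE 0.14 each). In each pair the 3 libraries of one clone lay outside the range of the other. A pseudocount of 4 in place of 1 brought TD5 against D11 to 0.25 and TD5 against WB1 to -0.43, under 1.5-fold. Among the clones, DICER1 RNA was lowest in TD5 and EPHA5 in D11. WB1 and D11 differed in DICER1 by -0.24 (limma adjusted p = 0.178). RNA gives no level of the DICER1 protein, and any relation of EPHA5 to DICER1 was not tested.

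The ranges of the summed level of 5 fibroblast markers had the same order of lines as EPHA5, by their lowest and their highest values. Those of TPC1 and WB1 overlapped, as did those of TD5 and D11, and both of the former lay above both of the latter. It was 12.8 to 18.1 per 1000000 in TPC1, 11.6 to 17.7 in WB1, 9.34 to 10.9 in TD5 and 8.24 to 10.1 in D11. COL1A1 and PDGFRB were at 1 per 1000000 or more in every library and LUM in those of TPC1 and WB1, while DCN was at 0 in all 12, LUM in D11 and COL1A2 in TD5. The 5 endothelial markers summed to 1.65 to 1.70 in TPC1 and 0.799 to 1.35 in the clones. These markers were read in a cultured carcinoma line and in clones each grown from a single cell of it. The sums of the epithelial, blood and thyroid markers, given above, also differed between lines, in other orders. Any relation of the marker sums to the EPHA5 values was not tested.

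**Figure D1:**
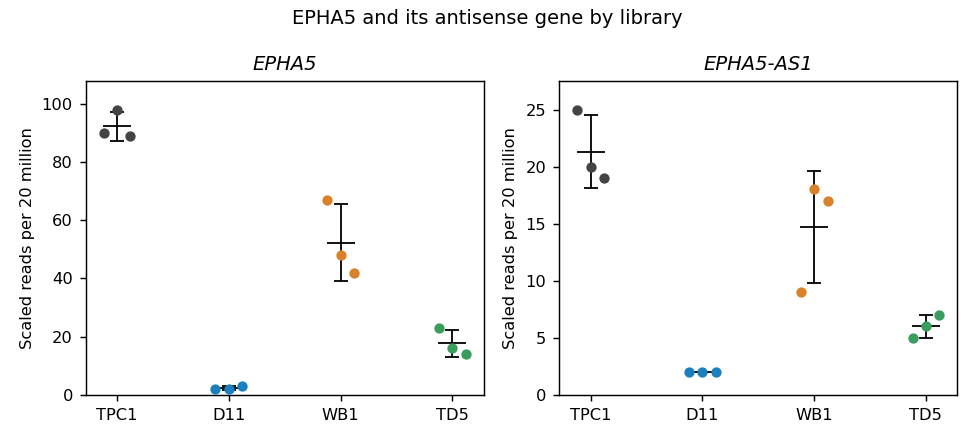
EPHA5 (left) and its antisense gene EPHA5-AS1 (right) in scaled reads per 20000000 (vertical axes, from 0) in the 4 lines (horizontal axes). Each point is a library, and the bar and whiskers give the mean and SD of 3 libraries. Both genes were highest in TPC1 and lowest in D11, where EPHA5 was at 2 to 3 and EPHA5-AS1 at 2 scaled reads.

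EPHA5-AS1 (ENSG00000250846, chr4:65669961-65698029, plus strand) is a long noncoding gene on the other strand from EPHA5. Its 3 annotated transcripts include 2 that start upstream of every annotated EPHA5 start and run away from it, the nearer one 35 bases away. Both of these starts lie inside the EPHA5 window printed above. The other transcript starts at chr4:65669961, inside EPHA5, and the EPHA5-AS1 window printed above is around that start. The exons of EPHA5-AS1 share 535 bases with those of EPHA5. It was at 25, 20 and 19 scaled reads in TPC1, 2, 2 and 2 in D11, 9, 18 and 17 in WB1, with 5, 6 and 7 in TD5. The order of the line means was that of EPHA5, with WB1 just below the TPC1 range. In D11 each library held 1 read, and the same ratio of TPC1 to D11 was 17.2 (95% counting interval 5.59 to 85.9), that of TPC1 to TD5 3.85 (2.04 to 7.89) and that of TPC1 to WB1 1.56 (1.01 to 2.44). The gene was under the filter and was not tested. The libraries were stranded, but whether the counting used strand is not stated, so reads of the 2 genes in their shared exons cannot be told apart.

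Of the other genes around EPHA5, RPL6P10 and CENPC did not share this order. A change across the region was not tested. RPL6P10, a ribosomal protein pseudogene inside an EPHA5 intron, ranged from 65 to 85 scaled reads in TPC1 and from 58 to 95 in the clones, so the ranges overlapped. CENPC, a centromere protein gene and the nearest coding gene at higher coordinates (1798267 bases away), was at 236 to 302 in TPC1 and 289 to 407 in the clones. TECRL, the nearest coding gene on the other side, was at 0 in all 12 libraries, so it can show no order. The 5 tested genes whose values over the 12 libraries were most like those of EPHA5, by Pearson's r on the log2 scale, were APOBEC3G (0.937), EMC10 (0.934), UBE2Z (0.929), NEU1 (0.928) and FUCA1 (0.928), a description over libraries that share 4 lines. EMC10, which encodes a subunit of an endoplasmic reticulum membrane complex, had the widest range of these, from 365, 392 and 421 scaled reads in TPC1 to 2, 2 and 5 in D11, 65, 52 and 57 in WB1, with 12, 8 and 12 in TD5.

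To compare genes with each other, levels were set per length, as value per 1000000 per kilobase of merged exons. In TPC1 EPHA2 was the highest of the 14 expressed family genes, at 62.1 ± 1.96, and EPHA5 the lowest, at 0.469 ± 0.0250 (SD, n = 3 libraries). The ligands lay between, with EFNA4 at 11.2 ± 0.894, EFNB2 at 9.65 ± 1.54, EFNA1 at 7.43 ± 0.0929, EFNB1 at 5.60 ± 0.686 and EFNA5 at 3.91 ± 0.271. Of the other receptors among the members, EPHB4 was at 4.89 ± 0.145, EPHA4 at 4.55 ± 0.907 and EPHB2 at 0.857 ± 0.00916. The neighbours EFNA4 and EFNB2, and likewise EPHB4 and EPHA4, differed by less than the sum of their SDs. EPHA2 made up 67.3% to 68.8% of the summed receptor level in the TPC1 libraries, 71.3% to 72.6% in D11, 66.1% to 68.5% in WB1 and 66.4% to 69.4% in TD5. The summed receptor level was 90.9 ± 2.07 in TPC1, 75.3 ± 2.73 in D11, 70.3 ± 1.65 in WB1 and 77.9 ± 6.94 in TD5, with all 9 clone libraries below TPC1.

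**Figure D2:**
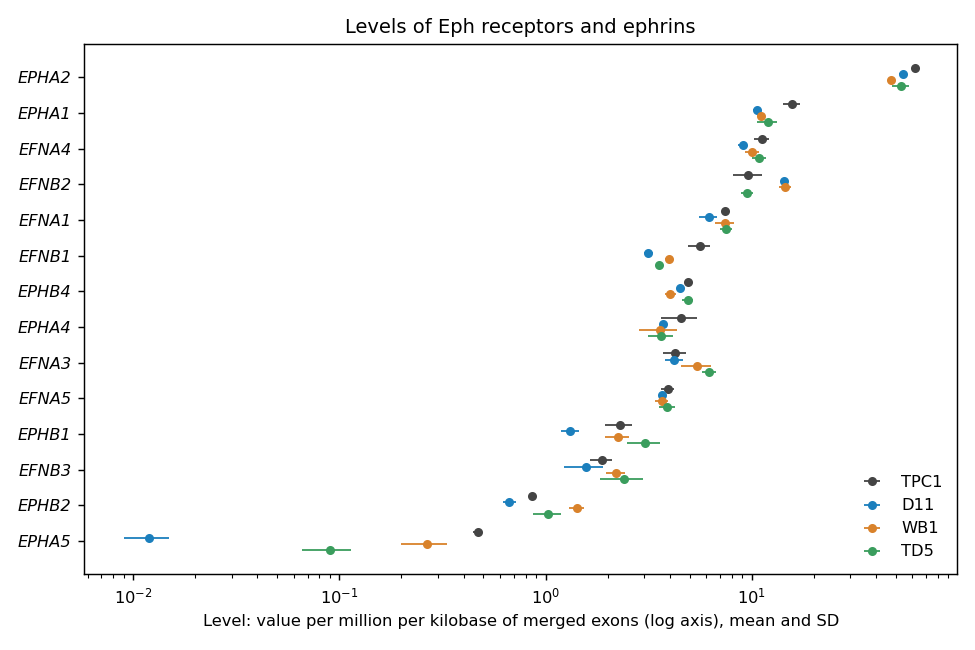
Mean level of the 14 expressed Eph and ephrin genes in the 4 lines, as value per 1000000 per kilobase of merged exons on a log axis (horizontal), with the SD of 3 libraries as whiskers. Genes (vertical) are ordered by their level in TPC1, from EPHA2 at 62.1 to EPHA5 at 0.469, and EPHA5 has the widest spread between lines, down to 0.0119 in D11.

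The 9 members other than EPHA5 were tested in each pair of lines. Called means an adjusted p under 0.05 over all 16027 tested genes and at least 1.5-fold. In D11 against TPC1, 1 of the 9 was called, EFNB1, lower, against 4.84% of all tested genes. In WB1, 2 were called, EPHB2 and EFNB2, both higher, against 4.99%, and in TD5 1 was called, EFNB1, lower, against 2.60%. Without the fold requirement, 5 members had an adjusted p under 0.05 in D11 (4 lower and 1 higher), against 33.3% of all tested genes, 5 in WB1 (3 lower and 2 higher), against 30.9%, and 2 in TD5 (both lower), against 11.9%. The median log2 difference of the 9 was -0.25 in D11, -0.13 in WB1 and -0.01 in TD5, beside 0.05, 0.06 and 0.00 over all tested genes. These 3 comparisons share the TPC1 libraries, so they are not independent.

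By the plain criterion that no library of the clone falls inside the TPC1 range, 7 of the 9 members were apart in D11 (6 lower and 1 higher), against 50.6% of all tested genes, 5 in WB1 (3 lower and 2 higher), against 45.3%, and 3 in TD5 (2 lower and 1 higher), against 26.5%. EPHA2 and EFNB1 were the 2 members whose 9 clone libraries all lay below TPC1, against 6.51% of tested genes. None had all 9 above, against 5.17%. With 9 genes these shares are coarse, and they are read here only beside those backgrounds.

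**Figure D3:**
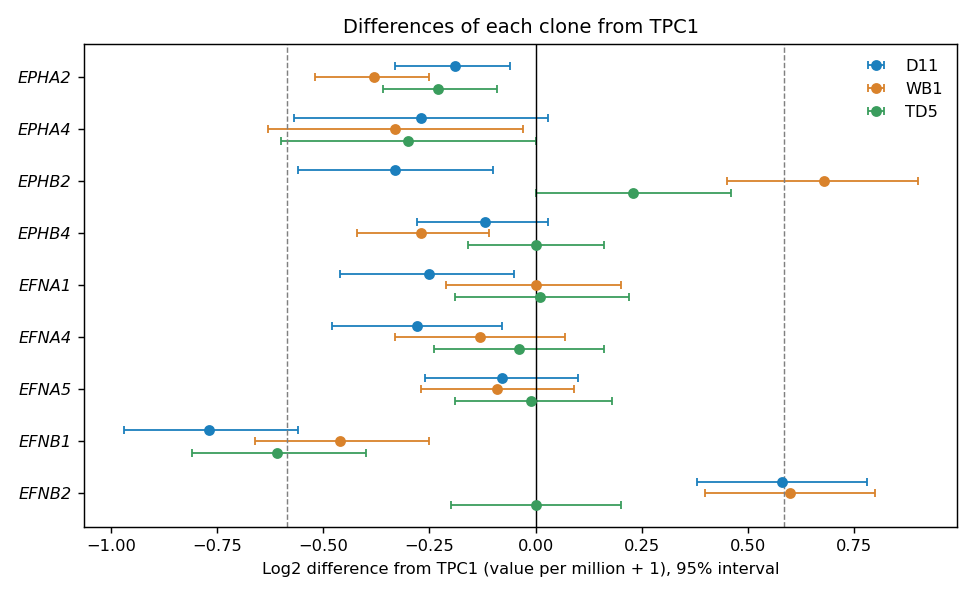
Log2 differences of D11, WB1 and TD5 from TPC1 for the 9 members other than EPHA5, on the log2(value per 1000000 + 1) scale (horizontal axis), with 95% intervals from the limma fit. Dashed lines mark 1.5-fold. EFNB1 lies left of 0 in all 3 clones (-0.77, -0.46 and -0.61), EPHB2 and EFNB2 differ between clones, and EFNA5 stays within 0.09 of 0.

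EPHA2 (ENSG00000142627, chr1:16124337-16156069) encodes the main EphA receptor of epithelial cells and carcinomas. It was at 5151, 4977 and 5301 scaled reads in TPC1, 4563, 4657 and 4281 in D11, 3886, 3896 and 4043 in WB1, with 4133, 4898 and 4184 in TD5. Every clone library lay below TPC1, although the highest TD5 library, at 4898, was close to the lowest TPC1 library, at 4977. The log2 difference was -0.19 for D11 (adjusted p = 0.0296), -0.38 for WB1 (adjusted p = 0.000461) and -0.23 for TD5 (adjusted p = 0.0288), in each case under 1.5-fold. Over the alternatives the log2 difference in D11 ranged from -0.25 to -0.07, with a limma adjusted p of 0.00883 to 0.3. On leaving out 1 library it stayed between -0.22 and -0.16, so the smallest difference came from another setting. In TD5 the adjusted p ranged from 0.00212 to 0.125, while in WB1 it stayed at or below 0.00404.

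EPHA4 (ENSG00000116106, chr2:221418027-221574202), the receptor that accepts both ephrin types, was at 759, 775 and 530 in TPC1, 542, 572 and 567 in D11, 458, 671 and 497 in WB1, with 627, 551 and 476 in TD5. The lowest TPC1 library was below most clone libraries, so the ranges overlapped in each pair. The log2 differences from TPC1 were -0.27, -0.33 and -0.30 in D11, WB1 and TD5, with 95% intervals of -0.57 to 0.03, -0.63 to -0.03 and -0.60 to 0.00, and none passed (adjusted p = 0.155, 0.0854 and 0.188). The EPHA4 exons share 353 bases with those of a long noncoding gene on the other strand, ENSG00000272944.

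EPHB2 (ENSG00000133216, chr1:22710839-22921500), an EphB receptor that sorts cells along the intestinal crypt, had the widest spread between lines after EPHA5, with a highest line mean 2.13 times the lowest. It was at 212, 216 and 216 scaled reads in TPC1, 169, 154 and 178 in D11, 391, 339 and 338 in WB1, with 297, 255 and 219 in TD5. The 4 lines did not overlap, in the order WB1, TD5, TPC1, D11, although the lowest TD5 library was just above TPC1. EPHB2 rose in WB1 by 0.68 on the log2 scale (SE 0.11, adjusted p = 0.000285). The differences were -0.33 in D11 (adjusted p = 0.0264) and 0.23 in TD5 (adjusted p = 0.177). WB1 was higher than D11 by 1.01 (SE 0.11, adjusted p = 7.12e-06), TD5 was higher than D11 by 0.56 (adjusted p = 0.00161, under 1.5-fold) and TD5 differed from WB1 by -0.45 (adjusted p = 0.0122, under 1.5-fold). In scaled reads the mean of TD5 was 1.54 times that of D11, so there the limit was missed on the fitted scale only. A pseudocount of 4 brought EPHB2 in WB1 to 0.56, under 1.5-fold.

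EPHB4 (ENSG00000196411, chr7:100802565-100827523), the receptor that pairs with ephrin-B2 at the border of arteries and veins, was at 651, 615 and 625 in TPC1, 592, 560 and 579 in D11, 503, 502 and 555 in WB1, with 618, 673 and 602 in TD5. WB1 and D11 lay below TPC1, and TD5 overlapped it. The log2 difference was -0.27 in WB1 (adjusted p = 0.0117, under 1.5-fold), -0.12 in D11 (95% interval -0.28 to 0.03) and 0.00 in TD5 (-0.16 to 0.16). The ratio of EPHB2 to EPHB4 scaled reads was 0.341 ± 0.0132 in TPC1, 0.289 ± 0.0164 in D11, 0.687 ± 0.0846 in WB1 and 0.408 ± 0.0637 in TD5. The EPHB4 exons share 69 bases with those of SLC12A9 on the other strand.

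**Figure D4:**
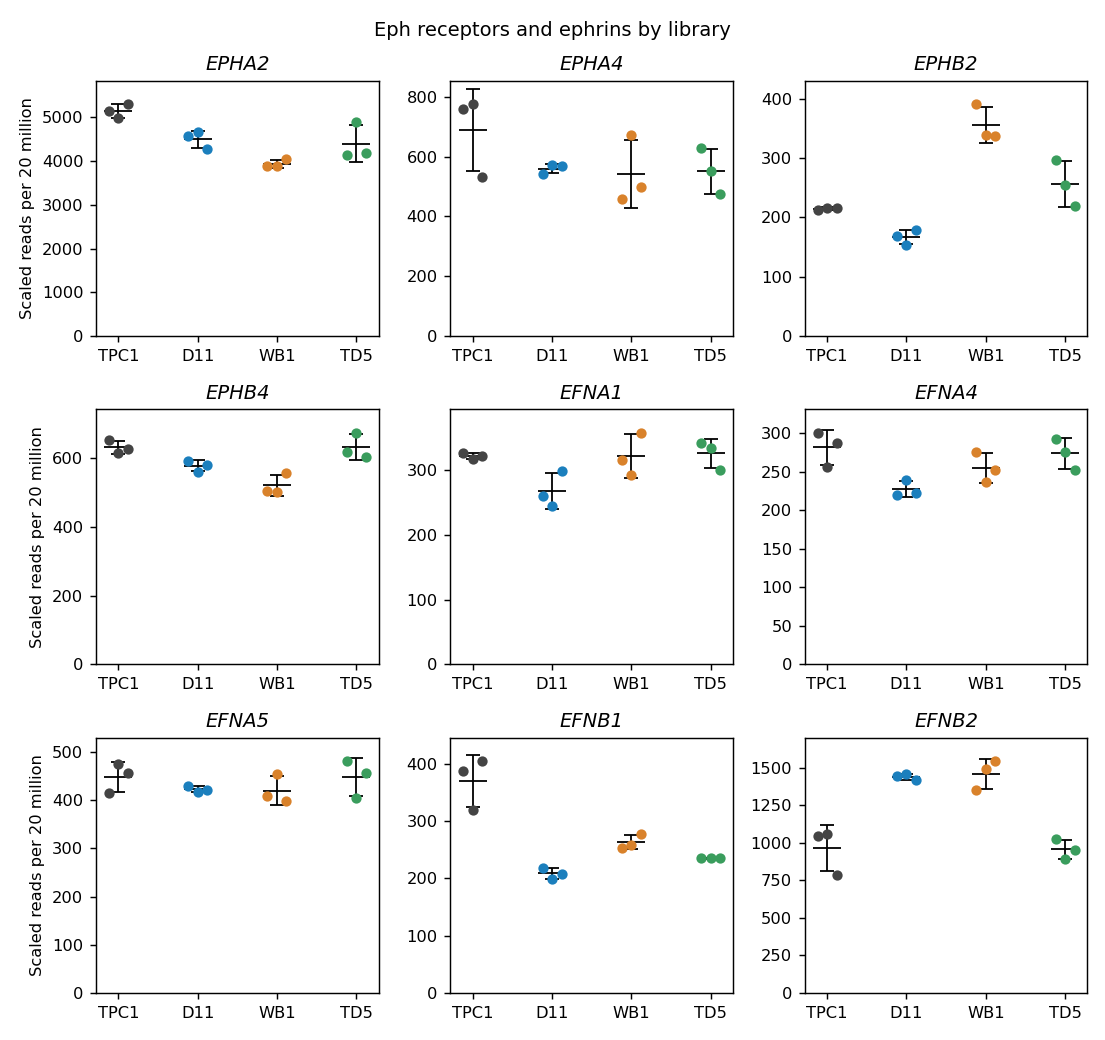
The 9 members other than EPHA5 in scaled reads per 20000000 (vertical axes, each from 0) in the 4 lines (horizontal axes). Each point is a library, with the mean and SD of 3 libraries. EFNB1 is highest in TPC1, EFNB2 is higher in D11 and WB1 than in TPC1 and TD5, and EPHB2 is highest in WB1.

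None of the 3 A-type ligands among the members was called in any pair of lines. EFNA1 (ENSG00000169242, chr1:155127876-155134899), a preferred ligand of EphA2, was at 326, 318 and 322 in TPC1, 260, 245 and 299 in D11, 316, 292 and 358 in WB1, with 342, 335 and 300 in TD5. D11 was the only line apart from TPC1, with a log2 difference of -0.25 (95% interval -0.46 to -0.05, adjusted p = 0.0550). EFNA4 (ENSG00000243364, chr1:155063737-155069553) was at 301, 257 and 287 in TPC1, 220, 240 and 223 in D11, 276, 237 and 252 in WB1, with 293, 276 and 252 in TD5. The D11 difference was -0.28 (adjusted p = 0.0316, under 1.5-fold), while WB1 (-0.13) and TD5 (-0.04) overlapped TPC1. EFNA4 shares 189 exon bases with a readthrough gene, EFNA4-EFNA3, which was at 102 to 128 scaled reads in TPC1, so its own share of those reads is uncertain.

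EFNA5 (ENSG00000184349, chr5:107376894-107670937), a high-affinity ligand of EphA5, was at 415, 476 and 456 in TPC1, 430, 417 and 422 in D11, 408, 455 and 398 in WB1, with 481, 405 and 457 in TD5. The 4 ranges overlapped, and the highest line mean was 1.07 times the lowest, the smallest such ratio of the 10 members. The log2 differences from TPC1 were -0.08 in D11 (95% interval -0.26 to 0.10), -0.09 in WB1 (-0.27 to 0.09) and -0.01 in TD5 (-0.19 to 0.18). Over the alternatives the difference ranged from -0.23 to -0.04 in D11 (limma adjusted p = 0.0527 to 0.793). In WB1 it ranged from -0.23 to -0.05 (limma adjusted p = 0.0498 to 0.738). The receptor EPHA5 had the widest spread between lines, but it was selected on its low values in the clones. The contrast between it and this ligand is therefore no result.

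EFNB1 (ENSG00000090776, chrX:68829021-68842160) encodes a transmembrane ligand that can signal into its own cell through its tail. It was at 387, 319 and 405 scaled reads in TPC1, 219, 199 and 208 in D11, 254, 259 and 277 in WB1, with 235, 235 and 236 in TD5. All 9 clone libraries were below TPC1 and the 3 clones did not overlap each other. EFNB1 fell in D11 (log2 difference -0.77, SE 0.10, adjusted p = 3.42e-05) and in TD5 (-0.61, SE 0.10, adjusted p = 0.000579), and the difference in WB1 was -0.46 (adjusted p = 0.00237, under 1.5-fold). The call in TD5 was close to the threshold of 1.5-fold, since without TPC1 replicate 1 the value was -0.57 and without TPC1 replicate 3 -0.54. Between clones no EFNB1 difference passed (WB1 against D11 0.31, adjusted p = 0.0569). Its neighbour STARD8, at lower coordinates, was at 374 to 410 in TPC1 and 465 to 678 in the clones.

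EFNB2 (ENSG00000125266, chr13:106489745-106535662), the transmembrane ligand known as a mark of arterial endothelium, was at 1049, 1062 and 789 scaled reads in TPC1, 1444, 1461 and 1422 in D11, 1352, 1493 and 1545 in WB1, with 1023, 892 and 955 in TD5. D11 and WB1 were above every TPC1 and TD5 library, and TD5 lay inside the TPC1 range. EFNB2 rose in WB1 by 0.60 (SE 0.09, adjusted p = 0.000286), and the value in D11, 0.58 (SE 0.09, adjusted p = 0.000404), missed 1.5-fold by little. WB1 and D11 differed by 0.02 (95% interval -0.18 to 0.22), so the call in one and not in the other does not show that they differ. The difference of TD5 from TPC1 was 0.00 (-0.20 to 0.20). TD5 was lower than WB1 (log2 difference -0.60, adjusted p = 0.000701) and than D11 (-0.58, adjusted p = 0.000439, under 1.5-fold on the fitted scale). In scaled reads the ratio of TD5 to D11 was 0.663.

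The WB1 call of EFNB2 ended without TPC1 replicate 3 (0.46), WB1 replicate 2 (0.58) or WB1 replicate 3 (0.56), with the adjusted p at or below 0.00235 under every alternative. The D11 value passed 1.5-fold without TPC1 replicate 1 (0.64), TPC1 replicate 2 (0.65) or D11 replicate 3 (0.59). The difference between TD5 and WB1 was under 1.5-fold without WB1 replicate 3 (-0.56) or TD5 replicate 2 (-0.55). ARGLU1, the nearest coding gene at higher coordinates (6011 bases away) and a splicing cofactor gene, was at 651 to 740 in TPC1, 1054 to 1112 in D11, 865 to 958 in WB1 and 728 to 945 in TD5. A long noncoding gene on the other strand, ENSG00000284966, shares 1822 of the 5005 exon bases of EFNB2 and has no values here. Whether the counting used strand is not stated, so its reads could be among those of EFNB2.

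Within a library, which removes the scaling between libraries, the ratio of EFNB2 to EFNB1 scaled reads was 2.71, 3.33 and 1.95 in TPC1, 6.59, 7.34 and 6.84 in D11, 5.32, 5.76 and 5.58 in WB1, with 4.35, 3.80 and 4.05 in TD5. The 4 lines did not overlap. EFNB1 was lower and EFNB2 higher than TPC1 in 2 clones, D11 and WB1, whereas TD5 differed from TPC1 in EFNB1 alone. The ratio was not planned and joins 2 ligands with these opposite differences, so the separation of the lines in it is no added result. The summed level of the 3 B-type ligands per length was 17.1 ± 1.27 per 1000000 per kilobase in TPC1, 19.1 ± 0.351 in D11, 20.8 ± 1.20 in WB1 and 15.5 ± 1.04 in TD5. That of the 4 listed A-type ligands above 0 was 26.8 ± 0.889, 23.1 ± 0.833, 26.7 ± 1.60 and 28.5 ± 1.79 in the same order.

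Between clones, 1 of the 9 members was called in WB1 against D11, EPHB2, against 2.85% of all tested genes, none in TD5 against D11, against 3.99%, and 1 in TD5 against WB1, EFNB2, against 2.33%. With the adjusted p alone there were 1 (8.07% of all tested genes), 2 (23.2%) and 3 (13.6%). For TD5 against D11, where limma called none, 4 of the 9 had an unadjusted p under 0.05, against 36.9% of all tested genes. EPHB2 and EFNB2 passed the adjusted p there in opposite directions, and leaving out 1 library raised the number called to as many as 2. Median-of-ratios scaling called 1, EPHB2, in that pair. The main fit did not pair the same-numbered libraries of TD5 and D11.

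The rest of the family comprises 12 genes, of which EPHA3, EPHA7, EPHA8 and EFNA2 were at 0 in all 12 libraries, and EPHA6, EPHA10, EPHB3 and EPHB6 were under the filter. The other 4 were tested. EPHA1, an epithelial EphA receptor, was at 1358, 1420 and 1636 scaled reads in TPC1 and at 973 to 1047 in D11, 998 to 1084 in WB1 and 1039 to 1273 in TD5, so all 9 clone libraries were below TPC1. The log2 differences were -0.54 (adjusted p = 0.000243), -0.49 (adjusted p = 0.000572) and -0.38 (adjusted p = 0.00673), each under 1.5-fold.

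EPHB1, a further EphB receptor, was at 263, 309 and 230 in TPC1, 142, 171 and 150 in D11, 227, 295 and 263 in WB1, with 415, 366 and 285 in TD5. D11 stood apart below the other lines. EPHB1 fell in D11 (log2 difference -0.72, SE 0.14, adjusted p = 0.00119), and WB1 and TD5 were higher than D11 by 0.69 (adjusted p = 0.00317) and 1.09 (adjusted p = 3.54e-05). With a pseudocount of 4 EPHB1 was no longer called in D11 or in WB1 against D11. EPHB2 was also lowest in D11. EFNA3, an A-type ligand, was at 142 to 184 in TPC1 and 228 to 265 in TD5 (log2 difference 0.51, adjusted p = 0.0127, under 1.5-fold), and the readthrough gene EFNA4-EFNA3 overlaps it. EFNB3, the third B-type ligand, was at 111 to 137 in TPC1, 76 to 116 in D11, 124 to 153 in WB1 and 120 to 193 in TD5. The difference between TD5 and D11 was 0.53 (adjusted p = 0.0223), under 1.5-fold on the fitted scale, with a ratio of 1.53 in scaled reads. In limma, 1 of these 4 was called in D11, against 4.84% of all tested genes, and none in WB1 or TD5 against TPC1, against 4.99% and 2.60%. In WB1 2 of the 4 had an unadjusted p under 0.05, against 42.7% of all tested genes, and in TD5 3, against 27.1%. With 4 genes these counts are too coarse to set the list apart from the rest.

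Of 54 genes that act next to Eph receptors or ephrins, 49 were tested. In D11 1 was called higher and 1 lower, in WB1 2 lower and in TD5 1 lower. These are 4.08%, 4.08% and 2.04% of the partners tested, against 4.84%, 4.99% and 2.60% of all tested genes, so the share called was near the background and is no result about the list. The median log2 difference was 0.04, 0.06 and 0.01, beside 0.05, 0.06 and 0.00 over all tested genes. Between clones, TD5 against D11 had 1 higher and 2 lower, 6.12% against 3.99% of all tested genes. The other 2 pairs had none in limma, against 2.85% and 2.33%, and 14 (WB1 against D11) and 19 (TD5 against WB1) of the 49 had an unadjusted p under 0.05, against 19.3% and 30.4%. The called genes, described as single genes below, were FYN, NGEF, TIAM1 and PICK1. By class, the 18 adaptors and kinases gave FYN, the 18 tested GTPases and their regulators NGEF and TIAM1, the 6 partners of the ephrin-B tail PICK1, and the 7 tested phosphatases, ubiquitin ligase and proteases none, with 4, 3 and 0 of 7 at an unadjusted p under 0.05 in D11, WB1 and TD5, against 44.6%, 42.7% and 27.1% of all tested genes.

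FYN, a Src family kinase that carries signals from EphA receptors and ephrins, was at 289, 292 and 287 scaled reads in TPC1, 261, 227 and 267 in D11, 149, 188 and 206 in WB1, with 152, 141 and 161 in TD5. All 9 clone libraries were below TPC1. FYN fell in WB1 (log2 difference -0.63, adjusted p = 0.000627) and TD5 (-0.85, adjusted p = 0.000101), and TD5 was lower than D11 (-0.66, adjusted p = 0.000534). Without WB1 replicate 1, 1 partner was called in WB1, PICK1, and with a pseudocount of 4 FYN was no longer called in WB1 or in TD5 against D11.

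PICK1, a PDZ protein that binds the tail of ephrin-B ligands and of some Eph receptors, was at 138, 153 and 145 in TPC1, 51, 55 and 66 in D11, 93, 78 and 84 in WB1, with 108, 117 and 125 in TD5. The 4 lines did not overlap. PICK1 fell in D11 (-1.10, adjusted p = 3.68e-06) and WB1 (-0.66, adjusted p = 0.000526), and TD5 was higher than D11 by 0.82 (adjusted p = 8.58e-05). With a pseudocount of 4 it was called in D11 but not in WB1 or in TD5 against D11, and with the GC correction it was not called in WB1. TIAM1, an exchange factor for Rac, was at 741 to 820 in TPC1, 1070 to 1161 in D11, 846 to 870 in WB1 and 579 to 697 in TD5, and TD5 was lower than D11 (-0.79, adjusted p = 1.58e-06). NGEF, which encodes ephexin-1, a protein that binds EphA receptors, was at 83, 122 and 75 in TPC1 and 183, 177 and 169 in D11, where it rose by 0.81 (adjusted p = 0.00255), a call that a pseudocount of 4 ended.

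**Figure D5:**
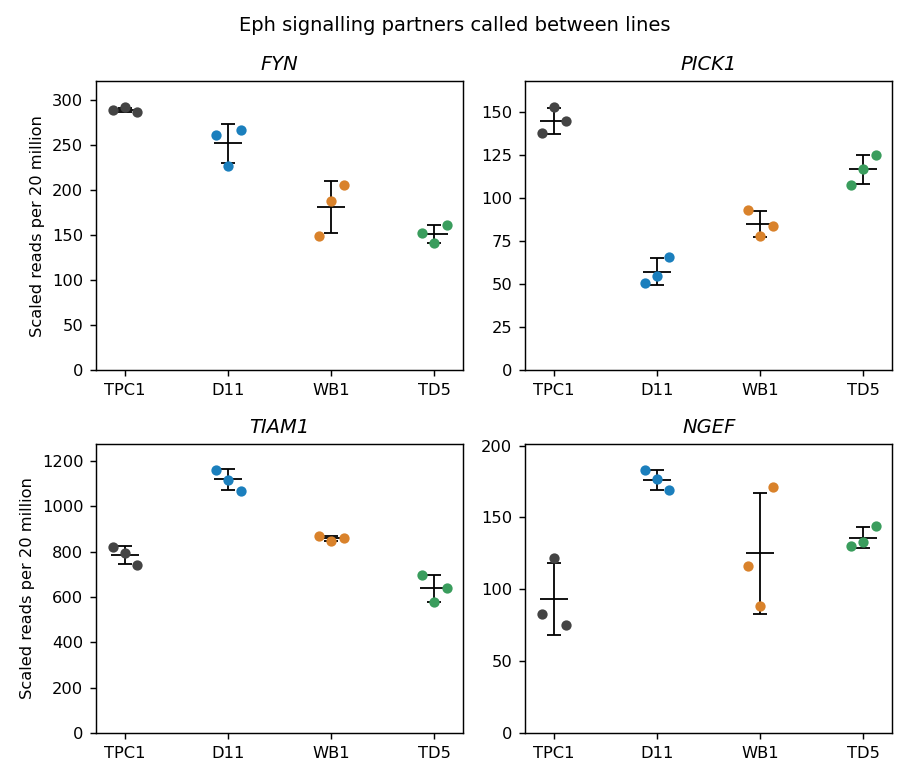
FYN, PICK1, TIAM1 and NGEF in scaled reads per 20000000 (vertical axes, each from 0) in the 4 lines (horizontal axes). Each point is a library, with the mean and SD of 3 libraries. FYN is lowest in TD5 and PICK1 in D11, and TIAM1 and NGEF are highest in D11.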

How the data were processed

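RNA was measured in 12 libraries, 3 each of TPC1, D11, WB1 and TD5, which were grouped by their titles. The authors prepared stranded mRNA libraries, mapped paired-end reads to GRCh38 with STAR 2.5.3a, counted them on genes of Ensembl release 90 with HTSeq 0.9.1 (tools as in the submitters' processing notes) and scaled each library to 20000000 aligned reads. The deposited values are whole numbers rounded up from scaled counts and were therefore treated as a score, not as counts. The library sums lay between 20009833 and 20014191. Depth was estimated from the step between values, which gave 12700000 to 21020000 reads, and this limits the precision of low genes.

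Each value was expressed per 1000000 of its library's sum, 1 was added and the log2 taken. The test was limma 3.58.1 (R 4.3.3) with its mean-variance trend, in a single model in which every line has a mean and all 12 libraries share the estimate of spread. The 16027 of 58302 genes with 1 per 1000000 or more in 3 or more libraries entered. A gene was called where its p, adjusted over the tested genes by the Benjamini-Hochberg method, was under 0.05. The change also had to reach 1.5-fold on this log2 scale. The count model the study used needs unscaled counts and was not run. The fit was tested on simulated data with known changes. Nothing in the labels says that the 3 libraries of a line came from separate cultures, so p-values measure the spread between these libraries, which may be technical.

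Lengths and coordinates came from GENCODE 44 on GRCh38, which matched 57532 of 58302 genes (98.7%) by identifier, and promoter windows from RefSeq on GRCh38.p14. The members and lists were chosen with earlier results of these data known. Named in the text are the 10 members in each pair of lines, family genes that pass the filter, signalling partners called in at least 1 pair, DICER1, the 5 genes most like EPHA5, and genes that overlap or neighbour a member. STARD8 and ARGLU1 are among the latter and were singled out after their values were seen. The ratios of EFNB2 to EFNB1 and of EPHB2 to EPHB4 were not planned. The p-values planned for EPHA5 between clones are not given, since its choice and the filter both used these libraries. The planned floor of 3 reads for EPHA5 in D11 was replaced by a ratio with an exact counting interval, since D11 held 1 to 2 reads per library. Replicate numbers are shared between lines. The correlation of the deviations of same-numbered libraries from their line means exceeded 0.1 in all 3 pairs for TD5 and D11 (0.107, 0.172 and 0.348) and in no other pair of lines. Same-numbered libraries of these 2 clones may therefore be pairs, which the labels do not say. The main fit, which gave every p for TD5 against D11 unless the block is named, did not pair them. Alternatives covered the pseudocount, the filter, the scaling, the trend, the minimum fold, the lines in the fit, a replicate block, a correction for GC content and leaving out each library in turn.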

Additional observations from a re-analysis of the deposited data

Results flagged for a closer look

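The clones differ from each other in several genes of the system. For EPHA5 the log2 difference was 1.68 between WB1 and D11, 0.75 between TD5 and D11 and -0.93 between TD5 and WB1, with the libraries apart in all 3 pairs. These 3 values are a description and support nothing further, because EPHA5 was picked for its low values in these clones and passed the filter through the lines where it is high. The others passed the limma test of the difference itself. EPHB2 differed between WB1 and D11 by 1.01. EPHB1 differed between WB1 and D11 by 0.69 and between TD5 and D11 by 1.09. EFNB2 differed between TD5 and WB1 by -0.60. What sets the clones apart was not tested.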

How the results depend on the processing

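Depth and the pseudocount limit EPHA5 most, because D11 holds 1 to 2 reads per library. EPHA5 in D11 as a percentage of TPC1 lay between 2.17 and 2.71 on leaving out 1 library, that in WB1 between 48.7 and 62.3 and that in TD5 between 16.2 and 21.1. These percentages use values rounded up, which raises D11 most. On estimated reads TPC1 was 55.0 times D11, so the narrow D11 range is no measure of precision. Its differences between clones kept their direction under the alternatives that could be fitted, and 2 of them were under 1.5-fold with a pseudocount of 4. With at least 5 per 1000000 required, and with TD5 and D11 alone in the fit, EPHA5 was under the filter and had no value. Beside the minimum fold, member calls that depended on the setting were those of EFNB1 in TD5, of EFNB2, and of EPHB2 in WB1 and in TD5 against D11. A pseudocount of 4 also ended calls of EPHB1, NGEF, FYN and PICK1. Apart from the values below, the causes of which were not tested, the counts stayed within 1.5 times.

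A pseudocount of 0.1 gave 2 members called in D11 and 2 in TD5 against D11, and 2 other family genes called in TD5 against D11. A pseudocount of 4 gave 0 members called in WB1, TD5 and TD5 against WB1, 0 family genes in D11 and in WB1 against D11, and 1 signalling partner in D11, 0 in WB1 and 1 in TD5 against D11. With no filter 2 family genes were called in TD5 against D11. Median-of-ratios scaling gave 1 member in WB1, 1 in TD5 against D11 and 0 in TD5 against WB1, and 2 family genes in D11, and it changed the split of all called genes in D11 from 463 higher and 312 lower to 340 and 365, in WB1 from 544 and 255 to 417 and 331, and in TD5 against D11 from 268 and 372 to 310 and 282. With no minimum fold the members were 5 in D11, 5 in WB1, 2 in TD5, 2 in TD5 against D11 and 3 in TD5 against WB1, the family genes 2, 1, 2 and 3 in D11, WB1, TD5 and TD5 against D11, and the partners 23, 18, 5, 6, 13 and 9 in D11, WB1, TD5, WB1 against D11, TD5 against D11 and TD5 against WB1. The correction for GC content gave 1 member in WB1 and 0 in TD5 and in TD5 against WB1, and 1 partner in WB1. It changed the split of all called genes to 253 higher and 317 lower in D11 and to 384 and 248 in WB1. In TD5 against D11 the split became 300 and 220.

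A replicate block shared by all 4 lines was fitted as well. No fit paired TD5 with D11 alone. With the block EPHA5 in TD5 against D11 was 0.75 and EFNB2 -0.58 (adjusted p = 0.00135), and the block changed no call of a member. With the block and the GC correction together, the counts called were those of the GC correction alone, 1 member in WB1, 0 in TD5 and in TD5 against WB1, and 1 partner in WB1, and EPHA5 in TD5 against D11 was 0.98.

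On leaving out 1 library, the members called ranged from 1 to 2 in D11, 1 to 2 in WB1, 0 to 1 in TD5, 0 to 2 in TD5 against D11 and 0 to 1 in TD5 against WB1. The family genes ranged from 1 to 2 in D11 and in TD5 against D11, and the partners from 1 to 3 in WB1, 1 to 2 in TD5 and 0 to 1 in WB1 against D11.

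The differences that changed sign were all small and uncalled. Median-of-ratios scaling gave EPHB4 in TD5 -0.01, and EPHA2 and EPHA4 in TD5 against D11 0.02 each. The GC correction, with or without the block, gave EFNA1 in WB1 0.06, EFNA4 in TD5 0.00, EFNB2 in TD5 0.02, EFNB2 in WB1 against D11 0.00, EPHA4 in TD5 against D11 0.06 and EFNA1 in TD5 against WB1 0.00. On leaving out 1 library the ranges against TPC1 were -0.08 to 0.06 for EFNA1 in WB1, and in TD5 -0.05 to 0.03 for EPHB4, -0.02 to 0.07 for EFNA1, -0.10 to 0.02 for EFNA4, -0.06 to 0.06 for EFNA5 and -0.14 to 0.07 for EFNB2. In WB1 against D11 they were -0.22 to 0.04 for EPHA4, -0.07 to 0.03 for EFNA5 and -0.02 to 0.07 for EFNB2. In TD5 against D11 they were -0.11 to 0.01 for EPHA2 and -0.12 to 0.07 for EPHA4. In TD5 against WB1 they were -0.07 to 0.19 for EPHA4 and -0.05 to 0.09 for EFNA1.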
